A study of Mus musculus with 18 samples.

Results

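The genes described here make, sense and break down prostacyclin, thromboxane and the E-type prostaglandins in mouse lung. They were chosen by symbol, with earlier results of these data known, from the deposited gene table, which lists 23356 features. All 10 named genes were found there: Ptgis, Ptgir, Ptgs1, Ptgs2, Tbxas1, Tbxa2r, Hpgd, Ptger2, Ptger4 and Ptges. Shares of members called are therefore set beside those of all genes as a description. Poly(A) RNA of whole lung, about 30 mg of frozen tissue per sample, was sequenced in 18 libraries from male C57BL/6 mice in 6 groups of 3. The genotypes were wild type, β-arrestin 1 -/- and a line labelled β-arrestin 2 -/-, and the exposures were 4 weeks of normoxia at normal altitude (PAO2 about 150 mmHg) or 4 weeks of hypoxia at the pressure of 18000 feet (PAO2 about 70 mmHg). Mice of every group entered at 8 to 12 weeks of age and are given as 12 to 16 weeks old at sampling. The wild type mice carry no arrestin deletion. How the alleles were made is not given in the sources used here, nor is it stated whether the 3 libraries of a group are 3 animals, so p-values measure the spread among libraries. In bulk lung, fewer cells of a type and less RNA per cell cannot be told apart.

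Prostanoids are short-lived lipid mediators made from arachidonic acid. Cyclooxygenases convert it to prostaglandin H2, which terminal synthases turn into prostacyclin, thromboxane A2 or prostaglandin E2, and each product acts on G protein-coupled receptors of its own. In the pulmonary circulation prostacyclin relaxes vessels and restrains platelets through cyclic AMP, thromboxane A2 constricts vessels and activates platelets through Gq and G12/13, and the lung removes E-type prostaglandins from blood by uptake and oxidation. β-Arrestins bind activated receptors of this class and end their coupling to G proteins.

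Library totals ran from 16806806 to 25980876 estimated fragments, and 16823 to 17410 genes had at least 1 fragment. Arrb1 stood at 10.7 to 15.1 FPKM (fragments scaled to transcript length and library size) in the 6 β-arrestin 1 -/- libraries against 38.7 to 61.3 in the 6 wild type libraries. Arrb2 ran from 17.5 to 23.1 FPKM in the 6 libraries labelled β-arrestin 2 -/- against 15.9 to 22.1 in wild type, so its level does not bear out that label, and the line is named by its label throughout. In normoxia this line also had less Arrb1 than wild type, at 33.3 to 40.8 FPKM (log2 -0.70 ± 0.12, adjusted p = 0.00435). Marker genes of lung epithelium and of endothelium were abundant in every library, with summed levels of 10900 to 19300 and 5120 to 8100 CPM (fragments scaled to library size). A tissue score was built from heart muscle, club cell and adipocyte genes. It lay at -2.37 to -1.23 in wild type normoxia and at 0.58 to 1.05 in wild type hypoxia. In β-arrestin 1 -/- lung it lay at -0.802 to 0.889 in normoxia and -1.55 to 1.02 in hypoxia. In the line labelled β-arrestin 2 -/- it lay at -0.544 to 2.07 and at 0.753 to 1.33. Wild type normoxia thus lay below normoxia of both mutant lines without overlap. Results with the score as a covariate are given where it touches them.

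Ptgir and Hpgd are the members whose levels moved most in wild type lung. The 250 bases before their RefSeq starts (GRCm38.p6, plus strand), chr7:16906240-16906489 and chr8:56294302-56294551, are shown in lower case with the GC box letters GGGCGG, or CCGCCC on the other strand, in capitals.
Ptgir: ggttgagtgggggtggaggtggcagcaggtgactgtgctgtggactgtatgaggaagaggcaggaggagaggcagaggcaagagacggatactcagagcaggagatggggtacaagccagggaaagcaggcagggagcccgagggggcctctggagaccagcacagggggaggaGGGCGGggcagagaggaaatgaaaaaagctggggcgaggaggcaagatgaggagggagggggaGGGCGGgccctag
Hpgd: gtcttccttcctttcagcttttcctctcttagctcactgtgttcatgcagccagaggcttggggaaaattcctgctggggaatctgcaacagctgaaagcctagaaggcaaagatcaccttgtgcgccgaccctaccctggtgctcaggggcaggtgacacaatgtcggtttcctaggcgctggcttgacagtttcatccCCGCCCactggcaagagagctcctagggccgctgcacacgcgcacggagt
Promoters of 9 of the 10 members were matched in the RefSeq table. In windows of 300 bases, 250 before and 50 after the start, both strands were searched for GGGCGG, for the hypoxia response element core ACGTG, for the cyclic AMP response element stretch TGACG and for the TATA box TATAAA. The GC box stood in windows of 6 of the 9 members and in 35.7% of all 32851 promoters. A member was counted if any of its starts searched had the letters, while the shares are per promoter. For Ptgs1, Tbxas1 and Ptges the RefSeq gene begins farther upstream than the 1 start searched. Tbxa2r had the GC box only at its alternative start. ACGTG stood in 1 member's window, that of Ptgs2, against 19.6% of all promoters, and TGACG stood in 2, Ptgs2 and an alternative start of Tbxa2r, against 20.8%. TATAAA stood in 2, Tbxas1 and Hpgd, against 13.6%. A match is a description of letters, and its absence says only that these letters are not in the window.

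The Ptgs2 window is shown for the 30 bases in which 2 of these motifs overlap, with the motif letters in capitals (GRCm38.p6, plus strand, chr1:150100034-150100063). TGACG is read there on the minus strand as CGTCA, and it overlaps CACGTG, which holds ACGTG on both strands.
Ptgs2: gtcaccactaCGTCACGTGgagtccgcttt

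By level per transcript length, the members spanned a wide range. Hpgd, the enzyme that oxidises and so inactivates E-type prostaglandins, had a mean of 452 FPKM over the 18 libraries, above 99.6% of all features. Ptgis, prostacyclin synthase, had a mean of 91.6 FPKM, and Ptgs1, the constitutive cyclooxygenase, 30.8. The other 7 had means of 2.30 to 7.54 FPKM, in the order Ptges, Tbxa2r, Ptgs2, Tbxas1, Ptger2, Ptgir and Ptger4. Fragments behind these values ran from 7824 to 27224 per library for Hpgd but from 84 to 190 for Tbxas1 and from 90 to 324 for Ptgir. All 10 members passed the filter on low counts, which kept 15388 genes.

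**Figure D1:**
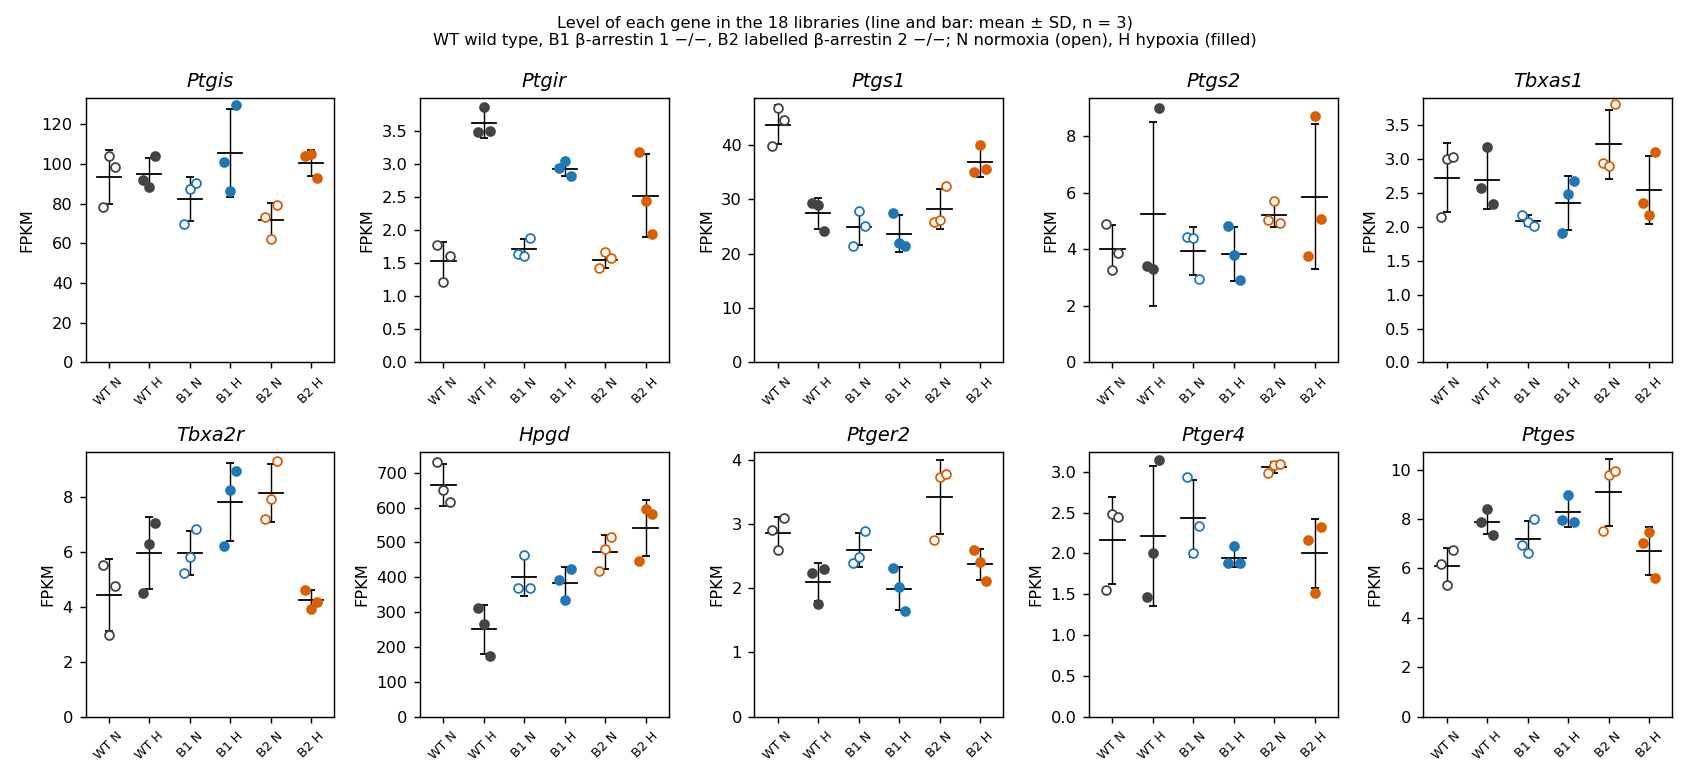
FPKM of each of the 10 genes (vertical axes, starting at 0) in the 6 groups (horizontal axes), 1 point per library, with the mean and SD of 3 libraries. The 9 hypoxic libraries lie above the 9 normoxic libraries for Ptgir, and the 3 wild type hypoxia libraries lie below the other 15 for Hpgd.

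The wild type groups show how these genes respond to chronic hypoxia in a lung without arrestin deletion. The prostacyclin receptor gene Ptgir rose 2.37-fold, while Hpgd fell to 0.379 and Ptgs1 to 0.63 of their normoxic levels. These 3 calls among 10 members compare with 4.76% of all genes called in the same comparison, at an edgeR adjusted p below 0.05. The groups did not overlap for 5 of the 10 members, against 24.7% of all genes. The median log2 change was 0.04 over the members and 0.00 over all genes tested, since members moved in both directions.

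Ptgir (chromosome 7, 16906490 to 16910905, mm10), which couples prostacyclin to cyclic AMP, stood at 1.77, 1.21 and 1.60 FPKM in wild type normoxia and at 3.48, 3.86 and 3.49 in hypoxia. Every hypoxic library was above every normoxic library. The log2 change was 1.24 ± 0.17 (SE, 95% interval 0.89 to 1.60, edgeR adjusted p = 0.000815). Hpgd (chromosome 8, 56294552 to 56321046) stood at 731, 650 and 615 FPKM in normoxia and at 312, 267 and 174 in hypoxia. The 3 wild type hypoxia libraries were the lowest of all 18, since the other 15 ran from 336 to 731. Hpgd fell by 1.40 ± 0.18 on the log2 scale (adjusted p = 0.000617). Ptgs1 (chromosome 2, 36230426 to 36252269), which supplies prostaglandin H2 in platelets, endothelium and other cells, stood at 39.9, 46.8 and 44.7 FPKM in normoxia and at 29.3, 28.9 and 24.2 in hypoxia. Its groups did not overlap, and it fell by 0.67 ± 0.13 on the log2 scale (adjusted p = 0.00727). Exons of Ptgs1 overlap Gm43621 on the opposite strand, and the library kit does not mark strand.

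None of these 3 wild type calls was lost when any single library was left out. With the tissue score as a covariate all 3 missed the threshold: Ptgir at 1.21 (adjusted p = 0.0529), Hpgd at -1.08 (adjusted p = 0.0672) and Ptgs1 at -0.39 (adjusted p = 0.393). Over all genes 42 were called with that covariate, in place of 733. Platelet and megakaryocyte genes moved with Ptgs1: 6 of the 13 on the list fell and 0 rose, 46.2% against 4.76% of all genes. The summed level of that list was 183 to 261 CPM in wild type normoxia against 107 to 151 in hypoxia. In the libraries labelled β-arrestin 2 -/- Ptgs1 stood at 25.8 to 32.4 FPKM in normoxia and 35.1 to 40.1 in hypoxia. The summed platelet level overlapped there, at 117 to 163 against 126 to 132 CPM, and 3 of the 13 genes rose and 1 fell. The part of these platelet genes in the Ptgs1 result was not tested.

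The other 7 members did not pass the test in wild type lung. Ptges (chromosome 2, 30889471 to 30903297), the inducible prostaglandin E synthase, stood at 6.17, 5.33 and 6.76 FPKM in normoxia and 7.89, 8.40 and 7.37 in hypoxia. Ptger2 (chromosome 14, 44988111 to 45003820), a prostaglandin E2 receptor that raises cyclic AMP, stood at 2.90, 2.60 and 3.09 FPKM and at 2.23, 1.76 and 2.30. For both genes the groups did not overlap, yet the adjusted p was 0.124 for Ptges (log2 difference 0.38 ± 0.13) and 0.126 for Ptger2 (-0.45 ± 0.16). Ptger2 passed at an adjusted p of 0.0391 (-0.46) when the 2 libraries of lowest total were left out. Ptgis, the synthase of Ptgir's ligand, differed by 0.03 ± 0.15 (95% interval -0.30 to 0.35). Tbxas1, thromboxane synthase, differed by -0.02 ± 0.20 (-0.43 to 0.40). Both intervals hold for the fit without the tissue score. With the score as a covariate the differences were 0.28 for Ptgis (adjusted p = 0.756) and 0.03 for Tbxas1 (adjusted p = 0.995).

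Hypoxia in β-arrestin 1 -/- lung changed 1 member, Ptgir, against 2.95% of all genes called. Ptgir stood at 1.64, 1.60 and 1.88 FPKM in normoxia and at 2.93, 3.04 and 2.81 in hypoxia, again without overlap. It rose 1.72-fold (log2 0.79 ± 0.17, adjusted p = 0.0203). The call was lost without β-arrestin 1 -/- normoxia replicate 0 (0.76, adjusted p = 0.0986) or replicate 1 (0.73, adjusted p = 0.0981), and when only these 2 groups entered the fit (0.78, adjusted p = 0.0952). With the tissue score as a covariate it held at 0.79 (adjusted p = 0.0289).

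Hpgd did not pass the test in β-arrestin 1 -/- lung, at 369, 464 and 369 FPKM in normoxia and 393, 336 and 423 in hypoxia. The groups overlapped, and the log2 difference was -0.05 ± 0.18 (95% interval -0.43 to 0.33). Ptgs1 was at 21.5, 27.9 and 25.2 FPKM and at 27.6, 22.0 and 21.4, with a difference of -0.06 ± 0.13. Besides Ptgir, Ptger2 was the only member whose groups did not overlap (2.40, 2.49 and 2.89 against 2.31, 2.02 and 1.65 FPKM), as 2 of 10 members compared with 21.2% of all genes, and it missed the threshold (-0.36 ± 0.16, adjusted p = 0.247).

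Of the 10 members, 6 changed with hypoxia in the libraries labelled β-arrestin 2 -/-: Ptgis, Ptgir and Ptgs1 rose, and Tbxa2r, Ptger2 and Ptges fell. In this comparison 21.9% of all genes were called, and the groups did not overlap for 7 members against 47.9% of all genes. The median log2 change was -0.10 over the members and -0.04 over all genes.

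Tbxa2r (chromosome 10, 81328731 to 81335172), the thromboxane receptor of vascular smooth muscle and platelets, stood at 7.20, 7.91 and 9.30 FPKM in normoxia and at 4.62, 3.90 and 4.17 in hypoxia. The groups were far apart, and the fall was 0.96 ± 0.21 on the log2 scale, to 0.514 of the normoxic level (adjusted p = 0.00661). This call held when any single library was left out. Here 21.9% of all genes were called, and of the 10 smooth muscle genes listed 4 fell and 0 rose, or 40%. Their summed level was 4160, 2390 and 2230 CPM in normoxia replicates 0, 1 and 2 and 1880 to 2210 in hypoxia, so that 1 library carried the upper end, and that library had the lowest Tbxa2r of its group. Their part in the Tbxa2r result was not tested.

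Other marker lists were counted in the same comparison, where 21.9% of all genes were called. Of 7 mesothelial genes tested 4 fell and 0 rose, or 57.1%. The summed level over that list was 631 to 836 CPM in normoxia and 336 to 467 in hypoxia. Of 10 fibroblast genes 2 rose and 5 fell, or 70% (2440 to 3110 against 2190 to 2710 CPM). Of 13 platelet genes 3 rose and 1 fell, or 30.8% (117 to 163 against 126 to 132 CPM). Of 10 endothelial genes 2 rose and 0 fell (5120 to 6140 against 6150 to 6680 CPM), and their 20% lies near the share of all genes. The part of these cells in the 6 member results was not tested.

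Ptgir stood at 1.42, 1.66 and 1.57 FPKM in normoxia and at 3.18, 2.43 and 1.94 in hypoxia. The groups did not overlap, but hypoxia replicate 2 lay close to the normoxic level. The rise was 0.68 ± 0.17 (adjusted p = 0.0113) and was lost without hypoxia replicate 0 (0.48, adjusted p = 0.0692). Ptgis (chromosome 2, 167203196 to 167240537) stood at 73.6, 62.2 and 79.6 FPKM in normoxia and 104, 105 and 93.2 in hypoxia, without overlap. It rose by 0.47 ± 0.15 (adjusted p = 0.0368), a call lost without normoxia replicate 0 or 1 or any 1 of the 3 hypoxia libraries (adjusted p = 0.0533 to 0.137).

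Ptgs1, which fell in wild type, stood at 25.8, 26.3 and 32.4 FPKM in normoxia and at 35.1, 40.1 and 35.6 in hypoxia in these libraries. All 3 hypoxic values were higher, with a rise of 0.37 ± 0.13 (adjusted p = 0.0440). The call was lost without normoxia replicate 0 or 1 or any 1 hypoxia library (adjusted p = 0.0748 to 0.144), without a filter on low counts (0.0518) and without the 2 libraries of lowest total (0.0871). Ptger2 fell by 0.54 ± 0.16 (adjusted p = 0.0236), from 2.75, 3.73 and 3.78 FPKM to 2.59, 2.41 and 2.12. Ptges fell by 0.45 ± 0.13 (adjusted p = 0.0263), from 7.5, 9.77 and 9.96 FPKM to 7.01, 7.48 and 5.63. For both genes the groups only just separated, and each call was lost when normoxia replicate 1 or 2, or hypoxia replicate 2, was left out (adjusted p = 0.08 to 0.115). Ptger2 was also lost without hypoxia replicate 1 (0.0584), and Ptges without hypoxia replicate 0 (0.0600) and when only the groups compared were fitted (0.0701).

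Ptger4 (chromosome 15, 5233404 to 5243831), the other prostaglandin E2 receptor that raises cyclic AMP, stood at 2.98, 3.08 and 3.10 FPKM in normoxia and 2.16, 1.52 and 2.32 in hypoxia in these libraries. The groups did not overlap and the log2 difference was -0.67 ± 0.25, which missed the threshold in edgeR (adjusted p = 0.0622). It passed in DESeq2 (-0.65, adjusted p = 0.0447), the more permissive test on counts simulated for wild type hypoxia only. It also passed in edgeR on the compared groups alone (-0.63, adjusted p = 0.0328).

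Ptgs2 (chromosome 1, 150100124 to 150108012), the inducible cyclooxygenase, passed in no comparison of the study. In wild type hypoxia it stood at 3.40, 3.32 and 9.0 FPKM, and in hypoxia in the libraries labelled β-arrestin 2 -/- at 3.77, 8.72 and 5.08. Within each of these groups 1 library was far above the others, and the hypoxia differences were 0.39 ± 0.36 in wild type and 0.15 ± 0.36 in the labelled line. Ptgs2 is itself induced early after stimulation, and the summed level of 25 other immediate early genes was the highest of the group in the same libraries. Their summed level was 8580 CPM in wild type hypoxia replicate 2 against 6030 and 3500 in replicates 0 and 1, and 6510 CPM in hypoxia replicate 1 of the labelled line against 4410 and 5420. In β-arrestin 1 -/- hypoxia the levels did not go together: replicate 2 had 6540 CPM of these genes and 2.92 FPKM of Ptgs2, the lowest of all 18 libraries. That replicate also had the lowest library total, at 16806806 fragments. Of these 25 genes 10 rose in wild type hypoxia and 0 fell, 40% against 4.76% of all genes. The part of these 25 genes in the Ptgs2 values was not tested.

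**Figure D2:**
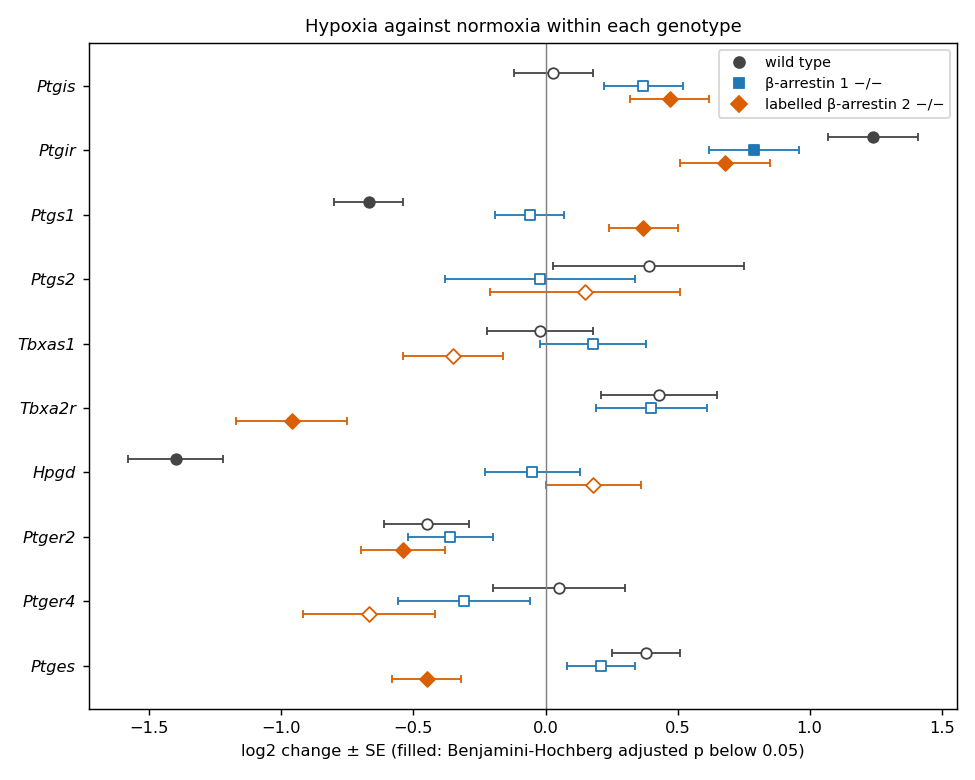
Log2 change with hypoxia ± SE (horizontal axis) of the 10 genes (vertical axis) in wild type (circles), β-arrestin 1 -/- (squares) and the libraries labelled β-arrestin 2 -/- (diamonds), with filled symbols where the edgeR adjusted p was below 0.05. Ptgir is filled in each genotype, at 1.24, 0.79 and 0.68, and Ptgs1 is filled on opposite sides of 0 in wild type and in the labelled line.

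Averaged over the 3 genotypes, with each weighted equally, hypoxia changed 4 members, against 19.4% of all genes. Ptgir rose by 0.90 ± 0.10 (adjusted p = 1.99e-05), and its 9 hypoxic libraries, at 1.94 to 3.86 FPKM, were all above its 9 normoxic libraries, at 1.21 to 1.88. Ptger2 fell by 0.45 ± 0.09 (adjusted p = 0.0029), with medians of 2.89 FPKM in normoxia and 2.23 in hypoxia. Both calls were kept with any single library left out and with the tissue score as a covariate (Ptgir 0.89, Ptger2 -0.39). Ptgis rose by 0.29 ± 0.09 (adjusted p = 0.0297), and the call was lost in 6 of the 18 fits that left out a library: wild type normoxia replicate 0, wild type hypoxia replicate 2, β-arrestin 1 -/- normoxia replicate 0, and normoxia replicate 1, hypoxia replicate 0 or hypoxia replicate 1 of the line labelled β-arrestin 2 -/- (adjusted p = 0.0536 to 0.065). Hpgd fell by 0.42 ± 0.10 (adjusted p = 0.00984), a mean of responses that differed between genotypes: -1.40, -0.05 and 0.18.

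Genes of the prostacyclin and thromboxane sides were also set beside each other as a ratio of FPKM values within each library. The Ptgir to Tbxa2r ratio was 0.32, 0.411 and 0.336 in wild type normoxia and 0.77, 0.614 and 0.494 in hypoxia. It was 0.315, 0.276 and 0.276 against 0.471, 0.368 and 0.314 in β-arrestin 1 -/- lung, where the groups overlapped. In the libraries labelled β-arrestin 2 -/- it was 0.198, 0.209 and 0.168 against 0.689, 0.622 and 0.465. Over all genotypes the log2 ratio was 0.90 higher in hypoxia (2-sided exact permutation test within genotype, p = 0.0005, where the smallest possible is 0.00025). Within a genotype the differences were 0.76, 0.37 and 1.56, and with 3 libraries against 3 no exact test can go below 0.1. With any single library left out the difference was 0.84 to 0.95, and with a pseudocount of 1 in place of 0.1 it was 0.65 (exact permutation p = 0.00125). The contribution of the receptors was not alike between genotypes: in wild type and β-arrestin 1 -/- lung Tbxa2r was 0.43 and 0.40 higher on the log2 scale without passing the test, and in the labelled line it fell. Averaged over genotypes, Tbxa2r differed by -0.04 ± 0.12 and Ptgir by 0.90 ± 0.10. The mean change of the ratio thus repeats the rise of Ptgir and is not a separate result.

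The matching ratio of the synthase genes, Ptgis to Tbxas1, was 36.3, 34.6 and 32.4 in wild type normoxia and 35.9, 27.8 and 44.6 in hypoxia, with full overlap. In β-arrestin 1 -/- lung it was 32, 42.1 and 44.9 against 52.8, 34.7 and 48.6, also overlapping. In the libraries labelled β-arrestin 2 -/- it was 25.0, 21.5 and 20.9 against 44.1, 48.3 and 29.9, without overlap. Over all genotypes the log2 ratio was 0.35 higher in hypoxia (exact permutation p = 0.035 within genotype). That p came above 0.05 when any 1 of 8 libraries was left out: wild type normoxia replicate 2, wild type hypoxia replicate 2, β-arrestin 1 -/- normoxia replicate 0, β-arrestin 1 -/- hypoxia replicates 0 and 2, or any normoxia library of the labelled line (p = 0.0505 to 0.074, exact permutation). Over the 2 ratios tested, the Benjamini-Hochberg adjusted values were 0.001 for the receptors and 0.035 for the synthases.

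**Figure D3:**
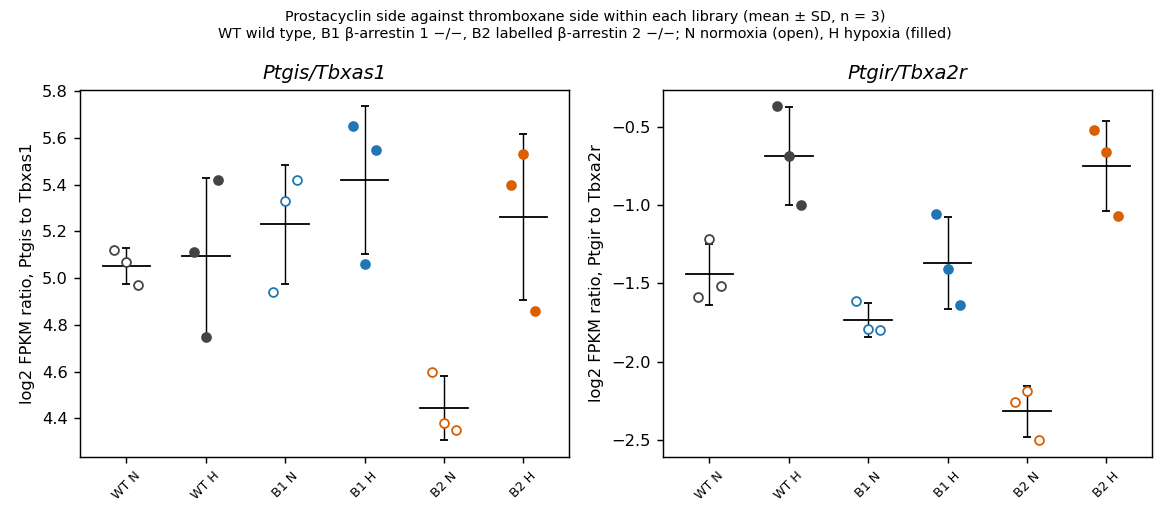
Log2 ratio of FPKM values (vertical axes) of Ptgis to Tbxas1 and of Ptgir to Tbxa2r in the 6 groups (horizontal axes), 1 point per library, with the mean and SD of 3 libraries. The receptor ratio was higher in hypoxia by 0.76 in wild type, 0.37 in β-arrestin 1 -/- and 1.56 in the libraries labelled β-arrestin 2 -/-.

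How the mutant lines differed from wild type was asked separately in each exposure, and the comparisons within an exposure share their 3 wild type libraries. In normoxia, Ptgs1 was the only member called in β-arrestin 1 -/- lung, where 0.221% of all genes were called. It was lower than wild type by a log2 change of -0.82 ± 0.13 (adjusted p = 0.00747), with values of 21.5 to 27.9 FPKM against 39.9 to 46.8. The call missed the threshold when wild type normoxia replicate 1 (-0.77, adjusted p = 0.0534) was left out, or β-arrestin 1 -/- normoxia replicate 0 (-0.72, adjusted p = 0.0786), and with the tissue score as a covariate (-0.63, adjusted p = 0.158). Over all genes 16 were called with that covariate, in place of 34. The platelet genes had a median log2 difference of -1.10 here, with 0 of 13 called and a summed level of 122 to 143 CPM against 183 to 261 in wild type, and their part was not tested.

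Hpgd was likewise below wild type in all 3 β-arrestin 1 -/- normoxia libraries, but its call depended on the test. The log2 difference was -0.73 ± 0.18 with an adjusted p of 0.135 in edgeR on all groups, 0.0384 in edgeR on these groups alone and 0.0133 in DESeq2, the more permissive test, and over all settings but those leaving out a library the adjusted p ran from 0.0133 to 0.901. The authors' deposited table also lists it as lower. Groups did not overlap for 2 of the 10 members, against 22.6% of all genes.

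In hypoxia 0 members were called in β-arrestin 1 -/- lung, where 0.201% of all genes were called. Groups did not overlap for 2 members, against 9.79% of all genes. Hpgd was higher than wild type in all 3 libraries (log2 difference 0.62 ± 0.18, unadjusted p = 0.00368, adjusted p = 0.267 in edgeR and 0.083 in DESeq2), and the authors' deposited table lists it as higher. Ptgir was lower in all 3 (2.81 to 3.04 against 3.48 to 3.86 FPKM, log2 difference -0.30 ± 0.17, adjusted p = 0.495).

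The libraries labelled β-arrestin 2 -/- differed from wild type normoxia in 3 members, against 9.49% of all genes, and groups did not overlap for 6 members, against 44.1%. Ptgs1 was lower, at 25.8 to 32.4 FPKM (-0.62 ± 0.13, adjusted p = 0.0105). Tbxa2r was higher, at 7.20 to 9.30 FPKM against 5.52, 2.96 and 4.76 (0.90 ± 0.22, adjusted p = 0.0219). Ptges was higher, at 7.5 to 9.96 against 5.33 to 6.76 FPKM (0.59 ± 0.13, adjusted p = 0.0178). For each of the 3 genes the groups did not overlap. Hpgd was lower than wild type in all 3 libraries as well, by a log2 difference of -0.48 ± 0.18 that missed the threshold in edgeR (adjusted p = 0.0899). It passed in DESeq2 (-0.49, adjusted p = 0.0466) and in edgeR on these groups alone (-0.50, adjusted p = 0.0302).

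Each of these 3 calls was lost with some library left out. That of Ptgs1 was lost without the labelled line's normoxia replicate 0 (adjusted p = 0.0534). That of Tbxa2r was lost without wild type replicates 1 or 2 or the labelled line's replicates 0 or 1 (adjusted p = 0.0501 to 0.0886), and that of Ptges without wild type replicates 0 or 1 or the labelled line's replicate 1 (adjusted p = 0.0515 to 0.0912). With the tissue score as a covariate the log2 differences were -0.37, 0.90 and 0.66, with adjusted p of 0.433, 0.313 and 0.251. Over all genes 29 were called with that covariate, in place of 1460. Of 10 smooth muscle genes 6 were higher and 0 lower in this comparison, 60% against 9.49% of all genes. Their summed level was 4160, 2390 and 2230 CPM in replicates 0, 1 and 2 against 1620 to 1780 in wild type. Of 13 platelet genes 7 were lower and 0 higher, or 53.8%, at 117 to 163 against 183 to 261 CPM. The part of either cell type in the results of Tbxa2r, Ptges and Ptgs1 was not tested.

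In hypoxia Hpgd was the only member called in the labelled line, where 0.923% of all genes were called. It stood at 448, 595 and 582 FPKM against 312, 267 and 174 in wild type, without overlap, and was 2.15-fold higher (log2 1.10 ± 0.18, adjusted p = 0.00735). The call held with any single library left out and with the tissue score as a covariate (1.13, adjusted p = 0.00301), and it missed the threshold when only these 2 groups were fitted (1.10, adjusted p = 0.0738). Ptgs1 was higher (0.42 ± 0.13, adjusted p = 0.145) and Ptgir lower (-0.53 ± 0.17, adjusted p = 0.162) in all 3 libraries without passing. Groups did not overlap for these 3 members, against 17.5% of all genes.

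**Figure D4:**
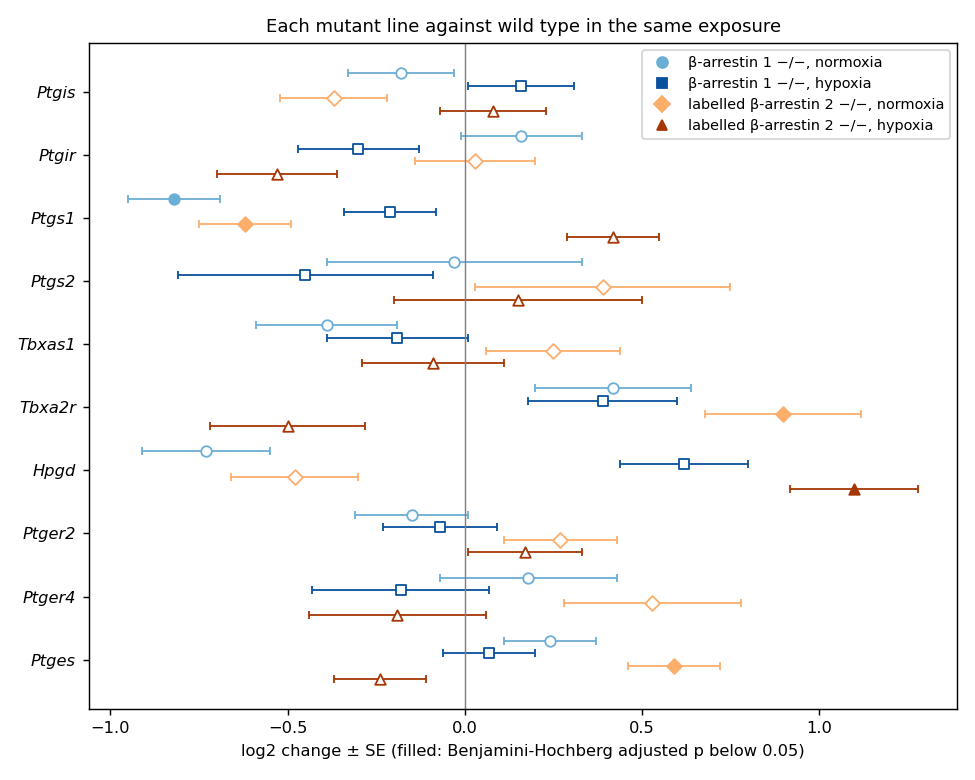
Log2 difference from wild type ± SE (horizontal axis) of the 10 genes (vertical axis) for each mutant line in each exposure, with filled symbols where the edgeR adjusted p was below 0.05. Ptgs1 is filled below 0 for both mutant lines in normoxia, and Hpgd is filled above 0, at 1.10, for the libraries labelled β-arrestin 2 -/- in hypoxia.

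Differences between the hypoxia responses of the lines were tested as interaction terms. Against wild type, the responses of the libraries labelled β-arrestin 2 -/- differed for 4 members, where 6.05% of all genes were called. The response of Hpgd was higher by 1.59 ± 0.26 (adjusted p = 0.00532), which set 0.18 beside -1.40 in wild type. That of Ptgs1 was higher by 1.04 ± 0.18 (adjusted p = 0.00678), which set 0.37 beside -0.67. Tbxa2r and Ptges responded in the other direction, by -1.40 ± 0.30 (adjusted p = 0.0196) and -0.83 ± 0.19 (adjusted p = 0.0226).

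The differences of Hpgd and Ptgs1 kept their calls with any single library left out. That of Tbxa2r was lost without wild type hypoxia replicate 2 (-1.24, adjusted p = 0.0574), and that of Ptges without wild type normoxia replicate 1, wild type hypoxia replicate 1, or, in the labelled line, normoxia replicate 1 or hypoxia replicate 2 (adjusted p = 0.0558 to 0.0756). With the tissue score as a covariate all 4 missed the threshold, at 1.32 for Hpgd (adjusted p = 0.0554), 0.81 for Ptgs1 (0.0653), -1.40 for Tbxa2r (0.0965) and -0.89 for Ptges (0.0893). Over all genes 8 were called with that covariate, in place of 931. The platelet list had 7 of 13 genes called higher in this interaction (53.8%) and the smooth muscle list 5 of 10 called lower (50%), against 6.05% of all genes. The response of Ptgir differed by -0.56 ± 0.24 (adjusted p = 0.152), which did not pass.

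For β-arrestin 1 -/- against wild type, edgeR called 0 of all genes and 898 had an unadjusted p under 0.05, while DESeq2 called 9. Hpgd was among the latter: its response was higher by 1.35 ± 0.26, with an unadjusted p of 7.93e-05 and an adjusted p of 0.407 in edgeR and 0.00198 in DESeq2. The next smallest p among the members was that of Ptgs1, at 0.61 ± 0.18 (unadjusted p = 0.0037, adjusted p = 0.807). The main test, edgeR, did not call this difference. DESeq2 made the larger share of false calls on simulated counts. Those counts were modelled on hypoxia in wild type and drawn with edgeR's estimates of spread, so they cannot decide between the tests here.

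**Figure D5:**
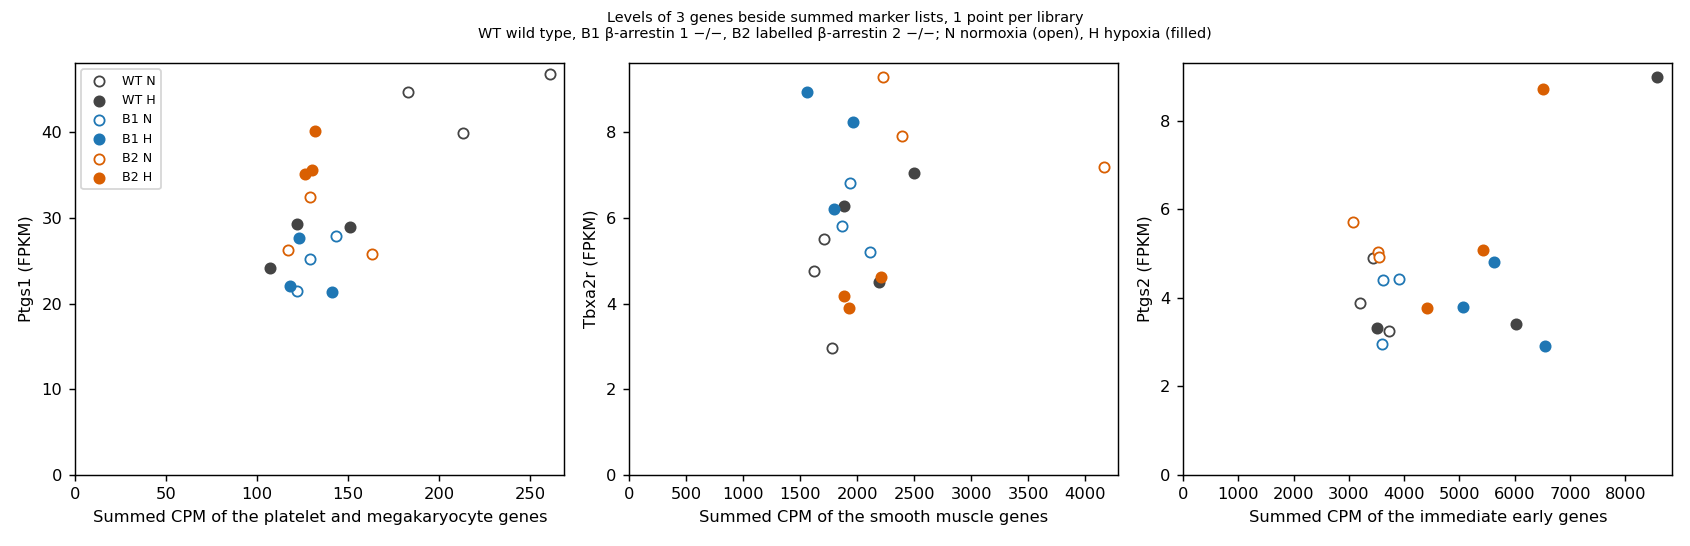
FPKM of Ptgs1, Tbxa2r and Ptgs2 (vertical axes, starting at 0) against the summed CPM of the platelet, smooth muscle and immediate early gene lists (horizontal axes), 1 point per library. The 3 wild type normoxia libraries are the highest in platelet genes, at 183 to 261 CPM, and wild type hypoxia replicate 2 is the highest in both Ptgs2 and the immediate early genes, while β-arrestin 1 -/- hypoxia replicate 2 is among the highest in the latter, at 6540 CPM, and the lowest in Ptgs2.

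The order of the groups can be read from the levels of the members that moved most. For Hpgd it was wild type normoxia (mean 665 ± 59.3 FPKM, SD, n = 3), hypoxia in the labelled line (542 ± 81.5), its normoxia (472 ± 49.0), β-arrestin 1 -/- normoxia (401 ± 54.6), β-arrestin 1 -/- hypoxia (384 ± 44.1) and wild type hypoxia (251 ± 70.4). The first group did not overlap its neighbour, nor did the last, and the 4 between overlapped each with the next. For Ptgir it was wild type hypoxia (3.61 ± 0.217 FPKM), β-arrestin 1 -/- hypoxia (2.93 ± 0.116), hypoxia in the labelled line (2.52 ± 0.626), β-arrestin 1 -/- normoxia (1.71 ± 0.149), normoxia in the labelled line (1.55 ± 0.118) and wild type normoxia (1.53 ± 0.283). Wild type hypoxia did not overlap β-arrestin 1 -/- hypoxia, the hypoxic groups did not overlap the normoxic ones, and other neighbours overlapped.

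Among other genes of prostanoid release, synthesis, transport, breakdown and reception, 24 of 29 listed were tested. In wild type and β-arrestin 1 -/- lung 0 were called with hypoxia, where 4.76% and 2.95% of all genes were called. The median log2 change was 0.10 in each, against 0.00 and 0.02 over all genes. In the libraries labelled β-arrestin 2 -/- 3 rose and 7 fell, 41.7% of the list against 21.9% of all genes. Slco2a1, the transporter that takes prostaglandins into cells before Hpgd oxidises them, rose there 1.94-fold, from 90.8, 101 and 123 FPKM to 209, 214 and 194 (log2 0.95 ± 0.15, adjusted p = 0.000654). All hypoxic libraries were above all normoxic ones. In wild type it stood at 178, 158 and 173 FPKM in normoxia and 170, 161 and 131 in hypoxia, which overlap, and the response of the labelled line was higher by 1.09 ± 0.21 (adjusted p = 0.0108). Of 10 endothelial genes, 2 rose with hypoxia in the labelled line, 20% of the list against 21.9% of all genes, and 8 were not called. The 2 were Pecam1 (0.51 ± 0.11) and Tie1 (0.25 ± 0.09). The part of endothelium in the Slco2a1 result was not tested.

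Ptgfrn, which encodes a membrane protein that binds the prostaglandin F2α receptor, rose 1.81-fold in the same comparison (0.85 ± 0.13), and Ptger1, a prostaglandin E2 receptor, rose by 0.41 ± 0.08. Ptgr1, a reductase of prostaglandin and leukotriene breakdown, fell by 0.79 ± 0.14. Against wild type normoxia the labelled line had less Ptgfrn (-0.61 ± 0.13), Slco2a1 (-0.68 ± 0.15) and Ptger1 (-0.31 ± 0.08) and more Pla2g2d, a secreted phospholipase (1.69 ± 0.42, at 1.19 to 1.35 FPKM against 0.285 to 0.592). In all, 2 of the 24 were higher and 3 lower there, 20.8% against 9.49% of all genes. Against wild type, 0 of the 24 were called for the labelled line in hypoxia, where 0.923% of all genes were. The same held for β-arrestin 1 -/- lung in normoxia (0.221% of all genes) and in hypoxia (0.201%).

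Of 30 genes of cyclic AMP signalling, through which Ptgir, Ptger2 and Ptger4 act, 1 rose and 1 fell in wild type hypoxia, 6.67% of the list against 4.76% of all genes. Adcy3, an adenylyl cyclase, rose from 4.99, 4.26 and 5.30 FPKM to 8.91, 10.2 and 9.86 (0.99 ± 0.17, adjusted p = 0.00392), without overlap, and Pde8b, a phosphodiesterase, fell by 0.50 ± 0.12. In β-arrestin 1 -/- lung Crem, a cyclic AMP-responsive transcription factor, fell by 0.69 ± 0.16 and 0 rose, 3.33% against 2.95% of all genes. Both shares lie near those of all genes. In the labelled line 5 rose and 1 fell, or 20% of the list against 21.9% of all genes, with Adcy3 (0.78 ± 0.17), Adcy6 (0.45 ± 0.10) and Adcy5 (0.71 ± 0.18) higher and Crem lower (-0.87 ± 0.16). Averaged over genotypes Adcy3 rose by 0.77 ± 0.10 (adjusted p = 6.86e-05) and Crem fell by 0.67 ± 0.09 (adjusted p = 0.000173).

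Of 14 genes of Gq and G12 signalling, through which Tbxa2r acts, 0 were called with hypoxia in wild type or β-arrestin 1 -/- lung, against 4.76% and 2.95% of all genes. In the labelled line 3 rose and 1 fell, or 28.6% against 21.9% of all genes: the G protein subunit genes Gna11 (0.49 ± 0.09) and Gnaq (0.35 ± 0.10) and the phospholipase Plcb4 (1.75 ± 0.36) rose, and Plcb2 fell by 0.93 ± 0.25. Against wild type normoxia Gnaq (-0.44 ± 0.10), Plcb4 (-1.27 ± 0.36) and Gna11 (-0.32 ± 0.09) were lower in this line, 21.4% of the list against 9.49% of all genes.

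The leukotriene and lipoxygenase genes, which use the same arachidonic acid, were tested for 15 of 17 listed. In wild type hypoxia Alox5, the 5-lipoxygenase, rose by 0.77 ± 0.21 (adjusted p = 0.0495) and 0 fell, 6.67% of the list against 4.76% of all genes. In β-arrestin 1 -/- hypoxia 4 rose and 0 fell, 26.7% of the list against 2.95% of all genes: Lta4h (0.28 ± 0.06), Alox5ap (0.75 ± 0.17), Dpep1 (0.70 ± 0.18) and Alox15. The size of the last rise was set by 1 library, at 5.58, 0.735 and 0.321 FPKM in hypoxia against 0.132, 0.111 and 0.144. In the labelled line Dpep1, a dipeptidase that acts on leukotriene D4, rose by 1.23 ± 0.18, and Cysltr1, a cysteinyl leukotriene receptor, fell by 0.95 ± 0.15. There 1 rose and 3 fell, 26.7% against 21.9% of all genes. Neutrophil genes had a summed level of 159 to 424 CPM in the 9 hypoxic libraries against 31.7 to 200 CPM in the 9 normoxic ones, and alveolar macrophage genes stood at 616 to 1240 CPM against 380 to 671. In β-arrestin 1 -/- lung the macrophage genes stood at 950 to 1190 CPM in hypoxia against 567 to 671. The part of either cell type in the leukotriene results was not tested.

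The genes most like each called member were ranked by Pearson's r of log2 CPM over the 18 libraries, which share tissue, exposure and group differences, so that r is a description. For Ptgir they were Fam181b (r = 0.94), Sdk1 and Slc26a10 (both 0.93), and r was 0.93, 0.93 and 0.92 without the 2 libraries farthest from the median. For Ptgs1 they were Foxo1 (0.93), Clca1 (0.90) and Cav1 (0.88), for Hpgd Fibin (0.92), Rbfox3 (0.88) and Fmo1 (0.87), and for Tbxa2r Neurl3 (0.91), Stat4 (0.89) and Xrcc6bp1 (0.88). Ptgis (Rxrb, 0.89), Ptger2 (9330159F19Rik, 0.88) and Ptges (Cttnbp2, 0.85) had lower highest values. Without the 2 farthest libraries r fell to 0.76 for Ptgis with Rxrb, 0.82 for Ptgs1 with Clca1 and 0.79 for Hpgd with Fmo1, and over all 21 pairs it ran from 0.74 to 0.93.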

How the data were processed

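The members and the gene lists used here were chosen with earlier results of these data known. The submitters' processing notes name FastQC, TopHat, Cuffdiff and the mm10 build, without versions. For each gene in each library the authors deposited an estimated count of fragments, unscaled and whole in 93.3% of cases, and an FPKM value scaled across libraries. The authors' deposited table of comparisons gives a p-value, a q-value and a test score, and its calls were read as q below 0.05 with the direction of the score. The library kit does not mark strand: exons of Ptgs1 overlap Gm43621, and exons of Ptger2 overlap Gm17173 and Gm49364, on the opposite strand.

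Of 23356 features, 5 without an estimate (HIDATA) were dropped, and 20 that failed in some library stayed in. Rounded counts went into edgeR 4.0.16 (R 4.3.3) with TMM scaling, its expression filter by group, a single quasi-likelihood fit of 18 libraries, and Benjamini-Hochberg adjustment over 15388 genes at a threshold of 0.05. All adjusted p-values are from this test unless another is named. Contrasts were hypoxia against normoxia per genotype and averaged, each line against wild type per exposure, and the differences of responses. FPKM ratios (log2 with 0.1 added to each value) were compared by exact permutation within genotype. Groups were called not overlapping on CPM. No libraries were identical.

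Named genes are the 10 members, up to 4 called genes per pathway list and comparison, those of smallest p, and the 3 genes of highest Pearson correlation with each member called in a single genotype's hypoxia comparison, where mean log2 CPM reached 1 or more. Not every gene so named is shown. The alternatives tried were DESeq2 1.42.0, edgeR with DESeq2's size factors or with no filter, and limma 3.58.1 on log2 FPKM with 1 or 0.1 added (minimum of 1 FPKM in 3 libraries, or none). Further fits used only the compared groups, a replicate block, a tissue score as covariate, all genes but haemoglobin, all but the 2 smallest libraries, and all but each library in turn. The tests were tested on simulated counts, modelled on hypoxia against normoxia in wild type, where a larger share of DESeq2's calls than of edgeR's was false. These counts were drawn with edgeR's own estimates of spread, and no other comparison was simulated. Promoter sequences are RefSeq's for GRCm38.p6, the assembly also called mm10. Figures were drawn with matplotlib 3.10.9.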

Additional observations from a re-analysis of the deposited data

Results flagged for a closer look

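The hypoxia responses of 4 members differed between wild type and the libraries labelled β-arrestin 2 -/- by a test of the difference itself, the interaction term in edgeR. The difference was 1.59 for Hpgd and 1.04 for Ptgs1 on the log2 scale, both higher in the labelled line. It was -1.40 for Tbxa2r and -0.83 for Ptges, both lower there. Each comparison rests on 3 libraries per group, and the targeted gene Arrb2 was not lower in the libraries so labelled. All 4 differences rest on the same wild type libraries. With the tissue score as a covariate in edgeR all 4 missed the threshold (adjusted p = 0.0554 to 0.0965). The calls of Tbxa2r and Ptges were also lost when certain single libraries were left out.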

How the results depend on the processing

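No call changed direction under any alternative run. Of 23 calls of a member in a comparison, 23 were kept with DESeq2, with DESeq2's size factors in edgeR, with haemoglobin genes left out and in each of the 3 limma fits on FPKM, and 22 without a filter and without the 2 libraries of lowest total. With only the groups compared, 16 of 19 were kept: members called were 0 in place of 1 for hypoxia in β-arrestin 1 -/-, 2 in place of 1 for β-arrestin 1 -/- against wild type in normoxia, and 0 in place of 1 for the libraries labelled β-arrestin 2 -/- against wild type in hypoxia. DESeq2 called 2 members for β-arrestin 1 -/- against wild type in normoxia and 1 for the difference of their hypoxia responses. In all DESeq2 gained 4 calls and the fit of the compared groups 3, among them Hpgd in the labelled line against wild type in normoxia (adjusted p = 0.0466 and 0.0302) and Ptger4 in its hypoxia (0.0447 and 0.0328) in both fits. With the tissue score as a covariate 12 of 23 calls were kept, and 0 members were called for hypoxia in wild type, either line against wild type in normoxia, or the difference of the labelled line's response. Calls over all genes fell there too: from 733 to 42 for hypoxia in wild type and from 931 to 8 for the difference of responses. Against wild type in normoxia they fell from 34 to 16 for β-arrestin 1 -/- and from 1460 to 29 for the labelled line.

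Leaving out each library in turn kept 168 of 210 calls. Members called then ran from 0 to 1 for hypoxia in β-arrestin 1 -/-, from 2 to 5 (4 without normoxia replicate 0) for hypoxia in the labelled line, from 0 to 1 for β-arrestin 1 -/- and from 1 to 3 for the labelled line against wild type in normoxia, and the Ptgis to Tbxas1 log2 ratio difference from 0.30 to 0.42. Replicate numbers are shared between groups. The deviations of same-numbered libraries from their group means had r from -0.463 to 0.470, with all 3 over 0.1 in 0 of 15 pairs of groups. With 3 libraries per group this rule cannot exclude a shared batch, and the main fit used no pairing. With the replicate block 22 of 23 calls were kept (Ptgs1 in the labelled line's hypoxia was lost, adjusted p = 0.0577), and the Ptgis to Tbxas1 difference stayed at 0.35 with an exact permutation p of 0.0781.

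Groups of 3 libraries limit every test. Members with at most 449 fragments per library, such as Ptgir, Tbxas1, Tbxa2r, Ptger2 and Ptger4, carry more counting error than Hpgd or Ptgis. Levels per gene cannot show which transcript or exon was measured, and enzyme or receptor protein was not measured.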

Other observations

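In the authors' deposited table of comparisons, members past a q-value of 0.05 were Ptgir (higher), Ptgs1 and Hpgd (both lower) for hypoxia in wild type, Ptgir for hypoxia in β-arrestin 1 -/-, and Ptgis, Ptgir (both higher) and Tbxa2r (lower) for hypoxia in the libraries labelled β-arrestin 2 -/-. For Hpgd that table calls each line against wild type in each exposure: lower in normoxia (q = 0.00124 and 0.0474) and higher in hypoxia (q = 0.00322 and 0.00124), for β-arrestin 1 -/- and the labelled line in that order. The edgeR fit of all groups called 1 of those 4.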
